A study of Mus musculus with 18 samples.

Results

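Genes for dermal collagen and other fibroblast matrix proteins were followed in scraped mouse epidermis with and without ultraviolet B (UVB). The set held 36 genes of the 56246 in the count table. They were chosen by name, for what is known of them in the dermal matrix. The rule itself uses no measured value, but it was drawn up with earlier results of these data known. All 36 were found in the table by their GENCODE symbol, and 34 had enough reads to be tested. Fibroblasts of the dermis are the main known source of these RNAs, and the set serves as a measure of dermis in the scraping.

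The epidermis came from the back skin of male mice aged 10 weeks, and its RNA was read in 18 libraries. Mice had been shaved 48 h before a single UVB dose of 180 mJ per cm2 and were sampled 24 h after it, or were left without UVB. K14-OPN mice carry a transgene that expresses osteopontin (OPN, gene Spp1) from the keratin 14 promoter, active in basal keratinocytes, on the OPN-null background, wild-type (WT) mice carry the normal gene, and OPN-null mice lack it. Thus K14-OPN and OPN-null mice share the null allele. With UVB there were 3 K14-OPN, 3 WT and 4 OPN-null libraries, and without UVB 3 K14-OPN, 2 WT and 3 OPN-null libraries. The labels do not say whether a library is 1 mouse or a pool, or how many transgenic lines were used. All p-values therefore measure the spread between these libraries, part of which may be technical.

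The fibrils of the dermis are built mainly of type I collagen, a trimer of Col1a1 and Col1a2 chains, with type III (Col3a1) and type V chains mixed in. Procollagen folds in the endoplasmic reticulum with the help of the chaperone HSP47 (Serpinh1), loses its end pieces to proteases of the Adamts and Bmp1 families outside the cell, and is cross-linked by lysyl oxidases. In skin, UVB is known for lowering type I procollagen synthesis and for raising matrix-degrading enzymes. Keratinocytes contribute the basement membrane collagens, not the fibrillar ones.

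Between 3696865 and 26068614 reads were counted to genes per library. Values below are CPM, counts per 1000000 of a library size scaled by the trimmed mean of M-values (TMM), and 3 counts correspond to 0.0818 to 2.14 CPM. Spp1 had 226 to 14948 counts in K14-OPN, 51 to 3443 in WT and 0 to 74 in OPN-null libraries. A total of 6 libraries, 1 in each group, were rich in the small RNA Rn7sk and poor in Lars2. They are K14-OPN 1, WT 8 and OPN-null 16 with UVB, and K14-OPN 2, WT 11 and OPN-null 10 without, and are called 7SK-rich here, the other 12 Lars2-rich. Among unirradiated libraries, WT 10 and K14-OPN 11 stood apart, with 83103 and 94192 CPM summed over 11 hair shaft genes. The other 16 libraries had 10.2 to 325 CPM. Keratinocyte markers were high in every library, with 2298 to 28144 CPM over 12 basal and 4305 to 31362 CPM over 10 suprabasal genes. Markers of the skeletal muscle under the skin summed to 1.64 to 9.26 CPM over 10 genes. Within a group, values below follow the label numbers. These are K14-OPN 1, 2, 3 with UVB and 1, 2, 11 without, WT 6, 7, 8 with UVB and 10, 11 without, and OPN-null 13, 14, 15, 16 with UVB and 8, 9, 10 without.

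Averaged over the 3 genotypes, 15 of the 34 tested genes fell with UVB and 2 rose at an adjusted p below 0.05 (edgeR quasi-likelihood test, Benjamini-Hochberg over all 18910 genes tested), and 17 did not pass. Of all genes tested, 11.4% fell and 10.0% rose in the same comparison. All 6 fibrillar collagens fell, as did 3 of 6 type VI and fibril-associated collagens, 1 of 4 elastic fibre genes, 2 of 5 adhesive glycoproteins and 3 of 6 genes of collagen folding, processing and cross-linking. None of 4 proteoglycan and collagen-binding genes and none of 3 receptor and transcription factor genes passed, with 1 and 0 at an unadjusted p below 0.05 and 1 (Bgn) and 0 called by DESeq2. The median log2 fold change, UVB over no UVB, was −1.70 over the 34 genes and −0.11 over all genes tested. All changes given below are log2 fold changes of this kind with their standard errors (SE), unless another scale is named. Fewer fibroblasts in a scraping and less RNA per fibroblast cannot be told apart in such bulk samples. Leaving out 3 unirradiated libraries, the hair-rich WT 10 and K14-OPN 11 and OPN-null 9, whose 10 most abundant genes held 84.3% of its counts, gave 15 that fell and 1 that rose. Every group holds 1 7SK-rich library, and with library kind as a term in the model 19 fell and 2 rose, against 16.7% and 15.6% of all genes. The 4 further genes that fell there were Bgn, Eln, Fstl1 and Sparc. Of the 17 genes that did not pass, 11 turned from a negative to a positive value without unirradiated WT 11. The hair-rich WT 10 is then the only unirradiated WT library, and it held 0 to 28 counts of each of these 11 genes.

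**Figure D1:**
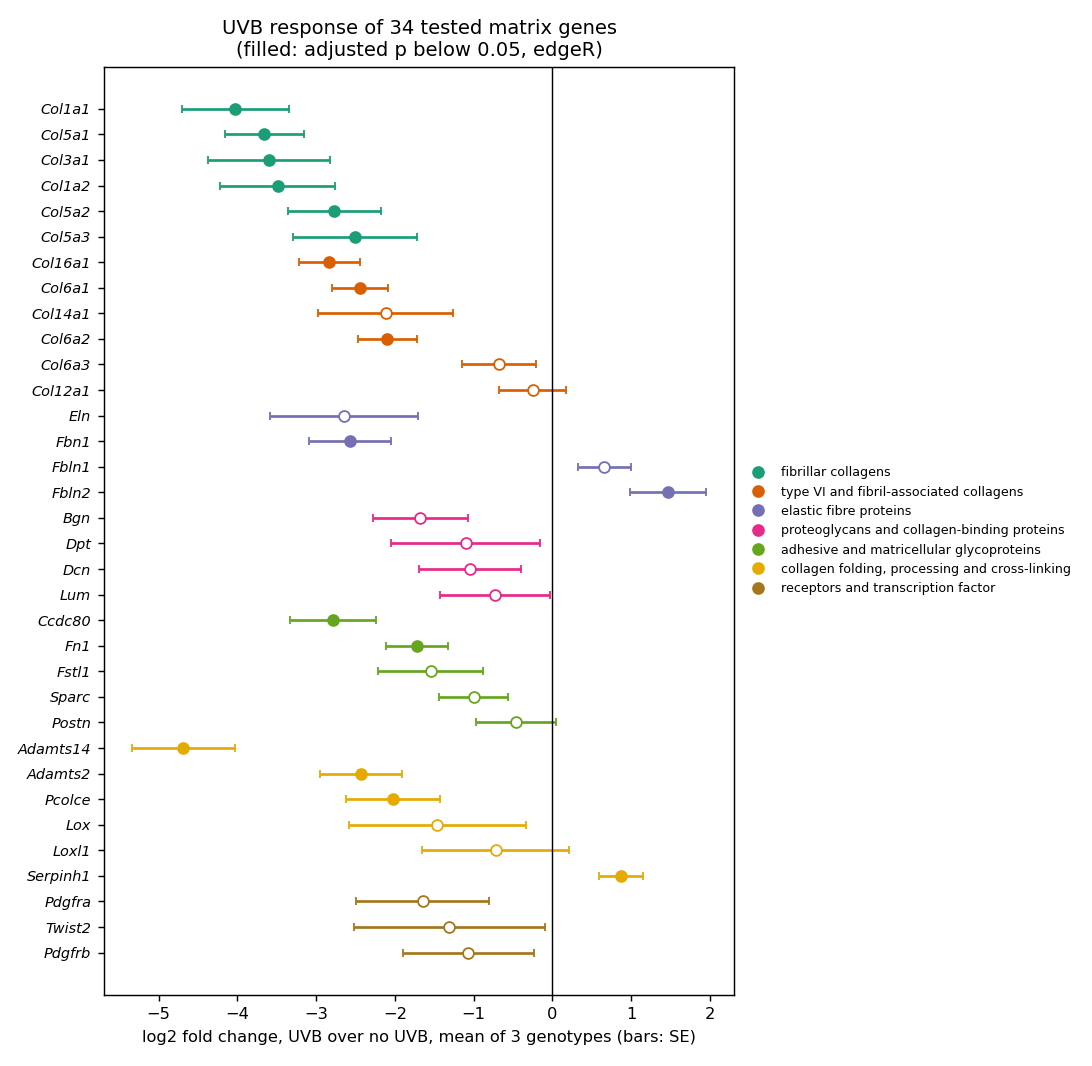
Log2 fold change (UVB over no UVB, mean of the 3 genotypes) of the 34 tested matrix genes, ordered by role and coloured by it; bars are standard errors and filled points passed an adjusted p of 0.05. All 6 fibrillar collagens lie between −4.03 and −2.50, while the filled points right of 0 are Serpinh1 and Fbln2.

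Start-site sequences are shown for 2 collagens that fell and the 2 genes that rose, so that they can be read against each other. Each runs 5′ to 3′ on the gene's own strand from 250 bases before the start of transcription to 50 bases after it, from RefSeq on GRCm38.p6. Capitals mark CCAAT boxes (CCAAT), GC boxes (GGGCGG) and TATA boxes (TATAAA) on either strand.
Col1a2, chr6:4505368-4505667, plus strand: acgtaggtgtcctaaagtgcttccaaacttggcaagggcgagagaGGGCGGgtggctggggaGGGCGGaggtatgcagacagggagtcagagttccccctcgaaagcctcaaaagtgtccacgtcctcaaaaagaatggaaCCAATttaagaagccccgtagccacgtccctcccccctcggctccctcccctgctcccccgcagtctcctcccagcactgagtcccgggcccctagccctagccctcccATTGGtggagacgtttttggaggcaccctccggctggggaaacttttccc
Col3a1, chr1:45311288-45311587, plus strand: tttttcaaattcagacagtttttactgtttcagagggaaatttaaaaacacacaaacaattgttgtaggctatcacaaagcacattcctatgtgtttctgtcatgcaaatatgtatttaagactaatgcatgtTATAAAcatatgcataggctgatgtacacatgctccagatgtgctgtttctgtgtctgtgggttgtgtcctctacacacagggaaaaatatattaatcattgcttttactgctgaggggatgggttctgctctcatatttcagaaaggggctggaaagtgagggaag
Serpinh1, chr7:99353190-99353489, minus strand: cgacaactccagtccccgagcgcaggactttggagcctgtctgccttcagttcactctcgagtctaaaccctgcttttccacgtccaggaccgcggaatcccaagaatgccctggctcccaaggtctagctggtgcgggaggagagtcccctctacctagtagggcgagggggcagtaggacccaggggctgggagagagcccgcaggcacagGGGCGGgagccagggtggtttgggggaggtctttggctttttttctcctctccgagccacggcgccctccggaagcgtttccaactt
Fbln2, chr6:91212514-91212813, plus strand: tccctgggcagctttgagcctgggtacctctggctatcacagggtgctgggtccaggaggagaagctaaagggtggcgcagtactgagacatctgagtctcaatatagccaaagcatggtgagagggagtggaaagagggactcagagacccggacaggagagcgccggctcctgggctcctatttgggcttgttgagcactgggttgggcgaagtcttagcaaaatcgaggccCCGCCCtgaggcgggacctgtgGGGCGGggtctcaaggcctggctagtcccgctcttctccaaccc
The Col1a2 window held 2 GC boxes and a CCAAT box on each strand, the CCAAT boxes at −109 to −105 and 1 to 5 relative to the start. Of these 3 motifs the Col3a1 window held a TATA box only, at −117 to −112. Serpinh1 had 1 GC box 37 to 32 bases before the start, and Fbln2 had 1 on each strand around it. A sequence of this kind was at hand for 23 of the 36 genes. Of these, 15 held a GC box, against 35.66% of all 32851 windows, 6 a CCAAT box, against 37.41%, and 3 a TATA box, against 13.62%. Other motifs searched on both strands were the AP-1 site TGANTCA in 1 gene, against 7.808% of windows, the SMAD repeat CAGACA in 6, against 21.04%, and the heat shock element core TTCNNGAA in 1, against 8.52%. No motif contains another. A match is a run of letters and was not tested for use.

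Fibrillar collagens had the lowest median log2 fold change of the 7 roles, at −3.54. Col1a1 (ENSMUSG00000001506.10, GRCm38 chromosome 11, 94936224 to 94953042, plus strand), the major chain of type I collagen, had the highest median level per length of the set in unirradiated libraries. In K14-OPN epidermis Col1a1 had 25.9, 55.3 and 45.8 CPM with UVB, against 861, 1403 and 351 CPM without. For WT the Col1a1 values were 20.3, 74.7 and 118 CPM with UVB and 82.1 and 1351 CPM without. OPN-null libraries held Col1a1 at 185, 24.1, 4.83 and 173 CPM with UVB, against 1818, 2314 and 1933 CPM without. In K14-OPN and OPN-null epidermis the irradiated libraries all lay below the unirradiated ones, and in WT the hair-rich library 10 lay within the irradiated range. The mean fold change over genotypes was −4.03 ± 0.68 on the log2 scale (SE; 16.3-fold lower; adjusted p = 0.000724). Its partner Col1a2 (chromosome 6, 4504814 to 4541544, plus strand) followed the same pattern. Col1a2 had 14.3, 38.9 and 33.0 CPM in irradiated K14-OPN libraries, against 448, 661 and 80.9 CPM in unirradiated ones. The Col1a2 values in WT were 18.3, 63.3 and 48.4 CPM with UVB, against 23.5 and 583 CPM without, and in OPN-null 131, 14.3, 0.878 and 81.8 CPM with UVB, against 731, 742 and 1029 CPM without. It fell by 3.49 ± 0.73 (SE; adjusted p = 0.00331).

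Col3a1 (chromosome 1, 45311538 to 45349706, plus strand) makes type III collagen, a homotrimer abundant in young and healing dermis. In K14-OPN epidermis Col3a1 had 35.7, 63.0 and 29.0 CPM with UVB, against 336, 1069 and 37.5 CPM without. For WT the Col3a1 values were 19.7, 75.9 and 80.2 CPM with UVB and 29.1 and 855 CPM without. OPN-null libraries held Col3a1 at 66.4, 6.03, 2.64 and 94.8 CPM with UVB, against 690.4, 620.2 and 1350.4 CPM without. The unirradiated hair-rich libraries, WT 10 and K14-OPN 11, were as low as irradiated ones, and the other 6 unirradiated libraries were above all irradiated libraries. Col3a1 fell by 3.60 ± 0.77 (SE; adjusted p = 0.00365). Col5a1, whose type V collagen starts fibrils and limits their width, is given next. Col5a1 had 1.42, 4.15 and 2.73 CPM in irradiated K14-OPN libraries, against 37.7, 49.9 and 4.17 CPM in unirradiated ones. The Col5a1 values in WT were 3.32, 5.77 and 3.40 CPM with UVB, against 5.23 and 43.9 CPM without, and in OPN-null 2.13, 0.614, 0.703 and 2.75 CPM with UVB, against 38.3, 55.5 and 50.1 CPM without. It fell by 3.66 ± 0.50 (SE; 12.6-fold; adjusted p = 0.000171), with K14-OPN 11 and WT 10 again low among the unirradiated libraries. The other type V chains, Col5a2 and Col5a3, fell by 2.77 ± 0.59 (adjusted p = 0.00357) and 2.50 ± 0.79 (adjusted p = 0.0321). The Col5a3 call was lost without any 1 of 11 libraries (K14-OPN 1, 2, 3, WT 6, 7, 8 with UVB, and K14-OPN 1, WT 10, 11 and OPN-null 8, 9 without). Its largest adjusted p was 0.118, at a log2 value of −1.68 without K14-OPN 1. Leaving out unirradiated WT 11, which leaves the hair-rich library as the only unirradiated WT one, moved Col1a1 to −2.98, Col1a2 to −2.25, Col3a1 to −2.28 and Col5a1 to −2.90, all still called. With the Lars2-rich libraries alone, Col1a2 (−1.99, adjusted p = 0.117), Col3a1 (−1.99, 0.0874), Col5a2 (−2.03, 0.0913) and Col5a3 (adjusted p = 0.107) were no longer called.

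Summed over the 6 fibrillar collagens, the 10 irradiated libraries held 9.05 to 394 CPM. The 8 unirradiated ones held 152 CPM in WT 10, 481 CPM in K14-OPN 11 and 1733 to 4405 CPM in the other 6. WT 10 thus overlapped the irradiated libraries, and K14-OPN 11 lay just above them. The hair shaft sum moved with this low collagen in both libraries, and so did the adipocyte sum, at 1817 and 2099.5 CPM against 4.69 to 100.4 CPM elsewhere. Most of that adipocyte sum was the single gene Fabp4, with 4794 counts in WT 10 and 19606 in K14-OPN 11. The adipocyte markers Adipoq and Lep had 0 counts in every library. The part of the hair shaft and adipocyte sums in the result was not tested.

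**Figure D2:**
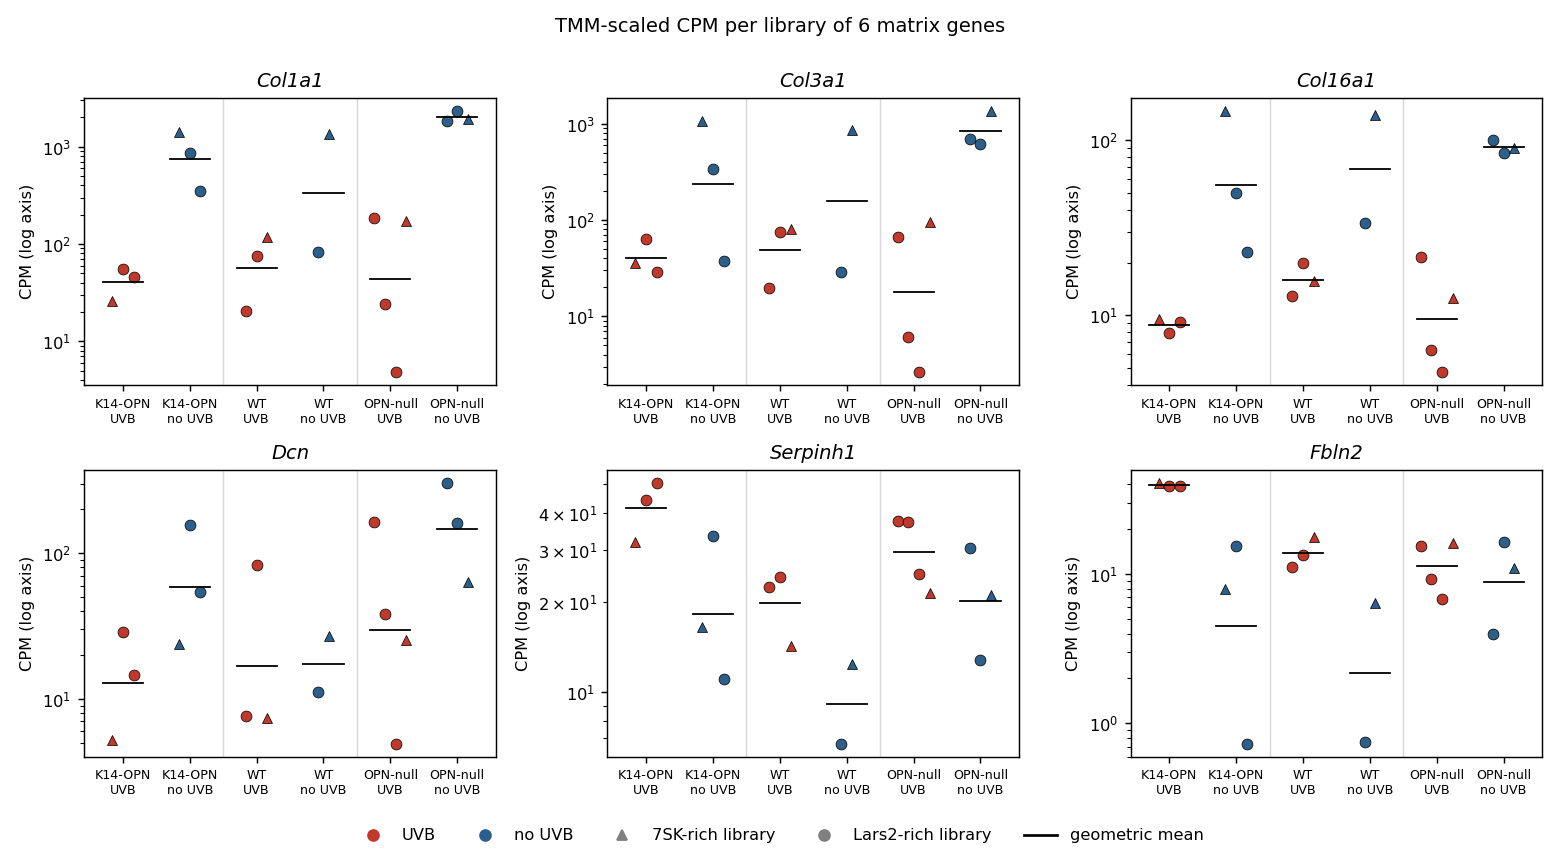
CPM (log axis) of 6 matrix genes in each of the 18 libraries, by genotype and UVB; triangles are 7SK-rich libraries, circles Lars2-rich ones, and lines geometric means. Col1a1, Col3a1 and Col16a1 lie lower with UVB apart from overlaps at the hair-rich WT 10 and K14-OPN 11, Dcn overlaps in every genotype, and Serpinh1 and Fbln2 lie higher on average.

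Among type VI and fibril-associated collagens, Col6a1, Col6a2 and Col16a1 fell, and Col6a3, Col12a1 and Col14a1 did not pass. Col6a1 (chromosome 10, 76708792 to 76726168, minus strand) and Col6a2 encode chains of type VI collagen, which forms beaded filaments around cells. Col6a1 had 2.59, 5.48 and 5.48 CPM in irradiated K14-OPN libraries, against 19.2, 27.0 and 26.6 CPM in unirradiated ones. The Col6a1 values in WT were 6.64, 4.25 and 7.70 CPM with UVB, against 19.0 and 25.1 CPM without, and in OPN-null 13.1, 1.74, 3.16 and 9.37 CPM with UVB, against 55.0, 81.9 and 36.1 CPM without. No genotype had overlapping groups, the hair-rich libraries included. Col6a1 fell by 2.44 ± 0.36 (SE; 5.42-fold; adjusted p = 0.000257). Col6a2 had 2.23, 7.55 and 5.37 CPM in irradiated K14-OPN libraries, against 20.8, 23.3 and 11.3 CPM in unirradiated ones. The Col6a2 values in WT were 6.57, 5.47 and 4.50 CPM with UVB, against 14.2 and 22.0 CPM without, and in OPN-null 8.33, 2.15, 0.966 and 6.23 CPM with UVB, against 30.8, 28.5 and 27.3 CPM without. Its groups did not overlap in any genotype either, and it fell by 2.10 ± 0.38 (SE; adjusted p = 0.00115). The chain with the longest exon sequence of the 3, Col6a3, was not called. Its log2 fold change was −0.68 ± 0.47 (adjusted p = 0.335), and its groups overlapped in every genotype. It was called in 1 alternative, without the 3 libraries that stood apart and with library kind as a term (−1.34, adjusted p = 0.0182). Levels of Col6a3 were 7.60 to 76.4 CPM with UVB and 14.9 to 158 CPM without.

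Col16a1 (chromosome 4, 130047840 to 130099283, plus strand) encodes a fibril-associated collagen and had, with Col5a1, the smallest adjusted p of the set. In K14-OPN epidermis Col16a1 had 9.49, 7.98 and 9.13 CPM with UVB, against 49.9, 146 and 23.0 CPM without. For WT the Col16a1 values were 13.0, 19.9 and 15.6 CPM with UVB and 33.6 and 139 CPM without. OPN-null libraries held Col16a1 at 21.4, 6.34, 4.74 and 12.6 CPM with UVB, against 101, 84.7 and 90.3 CPM without. Irradiated libraries lay below unirradiated ones in all 3 genotypes. Col16a1 fell by 2.83 ± 0.39 (SE; 7.12-fold; adjusted p = 0.000171). The other fibril-associated collagens had log2 fold changes of −0.25 ± 0.43 for Col12a1 (adjusted p = 0.725) and −2.12 ± 0.86 for Col14a1 (adjusted p = 0.0888), and 0.25 and 0.22 without unirradiated WT 11. DESeq2 called Col14a1 (−2.22, adjusted p = 0.0209). Col14a1 was at 0 to 2.29 CPM.

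Of the elastic fibre genes, Fbn1 fell and Fbln2 rose. Fbn1 (chromosome 2, 125300594 to 125507993, minus strand) encodes fibrillin-1, the main protein of the microfibrils on which elastin is laid. Fbn1 had 1.47, 1.44 and 2.24 CPM in irradiated K14-OPN libraries, against 9.35, 12.7 and 2.19 CPM in unirradiated ones. The Fbn1 values in WT were 0.949, 2.43 and 1.82 CPM with UVB, against 2.99 and 13.2 CPM without, and in OPN-null 2.13, 0.614, 0.264 and 4.36 CPM with UVB, against 14.1, 13.5 and 25.0 CPM without. The groups were separate in WT and OPN-null, and overlapped in K14-OPN through library 11. Fbn1 fell by 2.57 ± 0.52 (SE; adjusted p = 0.00256). The annotated gene Gm9913 on the other strand shares 20.14% of its exon bases, so some reads may be lost or exchanged. Eln, elastin itself, had a log2 fold change of −2.64 ± 0.94 (adjusted p = 0.0544), which missed the threshold. Eln was called in 6 of 7 alternatives other than leaving out 1 library, with adjusted p of 0.000619 to 0.0493, and not with Lars2-rich libraries only (0.33, adjusted p = 0.991). Its value was 0.21 without unirradiated WT 11. Mfap5, a microfibril protein, had at most 19 counts in any library and was not tested.

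Fbln2 (chromosome 6, 91212455 to 91272540, plus strand), which links elastic fibres and basement membranes, is described because it was 1 of only 2 genes that rose, a choice made after its values were seen. In K14-OPN epidermis Fbln2 had 40.8, 39.2 and 38.7 CPM with UVB, against 15.3, 7.93 and 0.730 CPM without. For WT the Fbln2 values were 11.2, 13.4 and 17.8 CPM with UVB and 0.746 and 6.41 CPM without. OPN-null libraries held Fbln2 at 15.5, 9.31, 6.85 and 16.2 CPM with UVB, against 3.96, 16.4 and 10.9 CPM without. Irradiated libraries were above unirradiated ones in K14-OPN and WT and overlapped with them in OPN-null. The mean log2 fold change was 1.47 ± 0.48 (SE; 2.77-fold higher; adjusted p = 0.0371). That call was lost without any 1 of 11 libraries (K14-OPN 1, 2, 3, WT 6, 7, 8 and OPN-null 13 with UVB, and K14-OPN 2, WT 10 and OPN-null 8, 10 without), with adjusted p up to 0.0845, and the value was 2.26 without unirradiated WT 11. The related Fbln1 had a log2 fold change of 0.66 ± 0.34 (adjusted p = 0.176).

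No small proteoglycan passed the test. Decorin (Dcn, chromosome 10, 97479609 to 97518143, plus strand) coats collagen fibrils and is made by fibroblasts at high levels. In K14-OPN epidermis Dcn had 5.23, 28.6 and 14.6 CPM with UVB, against 157, 24.0 and 54.6 CPM without. For WT the Dcn values were 7.67, 83.4 and 7.37 CPM with UVB and 11.2 and 27.1 CPM without. OPN-null libraries held Dcn at 163, 38.2, 4.92 and 25.6 CPM with UVB, against 304, 160.2 and 63.4 CPM without. Its groups overlapped in every genotype, and single irradiated libraries, WT 7 and OPN-null 13, were higher than several unirradiated ones. The log2 fold change was −1.04 ± 0.64 (SE; adjusted p = 0.27). Dcn was called in 1 alternative, without the 3 libraries that stood apart and with library kind as a term (−1.99, adjusted p = 0.017). Lumican (Lum), a neighbour of Dcn on chromosome 10 with a similar role, was also given in full. Lum had 2.69, 5.90 and 3.65 CPM in irradiated K14-OPN libraries, against 16.6, 8.07 and 3.34 CPM in unirradiated ones. The Lum values in WT were 1.74, 18.7 and 1.53 CPM with UVB, against 0 and 8.05 CPM without, and in OPN-null 17.2, 3.27, 0.264 and 5.20 CPM with UVB, against 18.5, 29.2 and 17.7 CPM without. Its groups were separate in OPN-null and overlapped in the other genotypes, and its log2 fold change of −0.73 ± 0.70 did not pass (adjusted p = 0.503) and was 2.21 without unirradiated WT 11. Biglycan (Bgn) and dermatopontin (Dpt) had −1.67 ± 0.61 (adjusted p = 0.0588) and −1.10 ± 0.95 (adjusted p = 0.444). With library kind as a term Bgn was called (−1.81, adjusted p = 0.0223), and Dpt was 1.10 without unirradiated WT 11. Fibromodulin (Fmod) had at most 16 counts in any library and was not tested.

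Adhesive and matricellular glycoproteins were lower in Fn1 and Ccdc80, with no call for Sparc, Postn and Fstl1. Fibronectin (Fn1, chromosome 1, 71585520 to 71653200, minus strand) is an adhesive protein on which new matrix assembles. Fn1 had 12.9, 30.5 and 13.3 CPM in irradiated K14-OPN libraries, against 27.3, 13.9 and 44.2 CPM in unirradiated ones. The Fn1 values in WT were 3.48, 6.68 and 7.37 CPM with UVB, against 36.6 and 15.2 CPM without, and in OPN-null 8.81, 3.38, 1.67 and 12.2 CPM with UVB, against 32.1, 54.8 and 20.5 CPM without. Groups were separate in WT and OPN-null and overlapped in K14-OPN. Fn1 fell by 1.72 ± 0.40 (SE; 3.30-fold; adjusted p = 0.00591). Without the 3 libraries that stood apart it was no longer called (adjusted p = 0.0744). Ccdc80, a secreted matrix-associated protein, was called as well. Ccdc80 had 1.47, 1.17 and 3.60 CPM in irradiated K14-OPN libraries, against 15.6, 6.09 and 5.84 CPM in unirradiated ones. The Ccdc80 values in WT were 1.42, 1.37 and 1.44 CPM with UVB, against 8.96 and 7.50 CPM without, and in OPN-null 6.20, 1.02, 0.0878 and 1.32 CPM with UVB, against 30.3, 43.4 and 11.5 CPM without. Every irradiated library was below the unirradiated ones of its genotype, and Ccdc80 fell by 2.79 ± 0.54 (SE; adjusted p = 0.00209).

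Sparc (chromosome 11, 55394500 to 55423183, minus strand) encodes a collagen-binding protein secreted by fibroblasts and other cells. Over the averaged genotypes it was called only when library kind was a term. In K14-OPN epidermis Sparc had 21.8, 98.8 and 62.4 CPM with UVB, against 252, 86.7 and 55.8 CPM without. For WT the Sparc values were 39.7, 106 and 22.6 CPM with UVB and 17.2 and 81.2 CPM without. OPN-null libraries held Sparc at 134, 59.6, 37.4 and 64.9 CPM with UVB, against 401, 355 and 171 CPM without. Only in OPN-null were its groups separate, and the log2 fold change of −0.998 ± 0.438 did not pass (adjusted p = 0.115). With library kind as a term Sparc was called (−1.19, adjusted p = 0.0369), also without the 3 libraries that stood apart (−1.75, adjusted p = 0.000755). In OPN-null alone the main test did not call Sparc. There it was called with library kind as a term, by DESeq2, with no filter on low counts and in a fit of the 2 compared groups only. It was not called there with RLE scaling, or without the 3 libraries and no term for library kind. Periostin (Postn), which promotes collagen cross-linking, had the smallest change of these 5 genes. Postn had 20.3, 12.7 and 16.1 CPM in irradiated K14-OPN libraries, against 24.2, 43.1 and 3.03 CPM in unirradiated ones. The Postn values in WT were 31.2, 17.8 and 17.8 CPM with UVB, against 0.746 and 37.1 CPM without, and in OPN-null 32.7, 12.7, 10.4 and 13.0 CPM with UVB, against 40.5, 32.8 and 35.3 CPM without. The groups were separate in OPN-null, the lowest 2 values were those of the unirradiated hair-rich libraries, and the log2 fold change was −0.46 ± 0.51 (adjusted p = 0.562). Postn was called without the 3 libraries that stood apart (−0.997, adjusted p = 0.0345) and was 1.10 without unirradiated WT 11. Fstl1 had −1.54 ± 0.66 (adjusted p = 0.108) and was called with library kind as a term (−1.66, adjusted p = 0.0138).

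Genes of collagen folding and processing moved in both directions. Adamts14 (chromosome 10, 61197112 to 61273438, minus strand), a protease that removes the N-terminal end of procollagen, had the lowest log2 fold change of the 34 genes. In K14-OPN epidermis Adamts14 had 1.37, 0.372 and 1.25 CPM with UVB, against 36.4, 71.0 and 6.78 CPM without. For WT the Adamts14 values were 2.06, 1.06 and 5.41 CPM with UVB and 8.21 and 73.6 CPM without. OPN-null libraries held Adamts14 at 2.03, 0, 0.966 and 2.84 CPM with UVB, against 44.0, 49.1 and 51.0 CPM without. Groups did not overlap in any genotype. It fell by 4.69 ± 0.65 (SE; 25.7-fold; adjusted p = 0.000173), and by 3.90 without unirradiated WT 11. The sister protease Adamts2 fell by 2.43 ± 0.52 (adjusted p = 0.00376). Its call was lost without unirradiated WT 11 (−1.56, adjusted p = 0.0997) and with the Lars2-rich libraries alone (−1.38, 0.158). Pcolce, which speeds the removal of the C-terminal end, fell by 2.02 ± 0.60 (adjusted p = 0.0244). That call was lost without any 1 of 5 libraries (K14-OPN 2, 3 and WT 6 with UVB, OPN-null 9 and WT 11 without), with adjusted p up to 0.153. Lysyl oxidase (Lox) and Loxl1, the cross-linking enzymes, had −1.46 ± 1.13 (adjusted p = 0.387) and −0.72 ± 0.94 (adjusted p = 0.629), and 0.51 and 1.43 without unirradiated WT 11, at 0 to 4.16 CPM.

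Serpinh1 (chromosome 7, 99345376 to 99353239, minus strand) encodes HSP47, the collagen-specific chaperone, which is also a heat shock protein. In K14-OPN epidermis Serpinh1 had 31.9, 44.1 and 50.3 CPM with UVB, against 33.3, 16.5 and 11.1 CPM without. For WT the Serpinh1 values were 22.5, 24.3 and 14.3 CPM with UVB and 6.72 and 12.4 CPM without. OPN-null libraries held Serpinh1 at 37.5, 37.2, 24.9 and 21.4 CPM with UVB, against 30.3, 12.8 and 21.2 CPM without. Its groups were separate in WT and overlapped in K14-OPN and OPN-null. The log2 fold change was 0.87 ± 0.28 (SE; 1.83-fold higher; adjusted p = 0.0332). The call was lost without any 1 of 8 libraries (K14-OPN 2, 3, WT 6, 7 and OPN-null 13 with UVB, and K14-OPN 2, 11 and WT 10 without), with adjusted p up to 0.0769. It was also lost without the 3 libraries that stood apart, and was 0.33 (adjusted p = 0.179) when library kind was a term as well.

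None of the receptor and transcription factor genes was called. Pdgfra, the receptor for platelet-derived growth factor that marks dermal fibroblasts, is given in full. Pdgfra had 1.32, 1.12 and 0.463 CPM in irradiated K14-OPN libraries, against 3.12, 4.89 and 1.25 CPM in unirradiated ones. The Pdgfra values in WT were 0.554, 2.28 and 1.10 CPM with UVB, against 0 and 4.72 CPM without, and in OPN-null 4.26, 0, 0 and 2.30 CPM with UVB, against 11.9, 2.14 and 10.2 CPM without. The groups overlapped in every genotype, and the log2 fold change was −1.65 ± 0.85 (adjusted p = 0.18). This value was 1.03 without unirradiated WT 11 and 1.06 with Lars2-rich libraries only. Both fits leave the hair-rich WT 10, with 0 counts of Pdgfra, as the only unirradiated WT library. Between 7SK-rich libraries Pdgfra differed in log2 CPM by −1.78 in K14-OPN, −1.96 in WT and −2.08 in OPN-null. Between means of Lars2-rich libraries it differed by −1.28 in K14-OPN, 3.13 in WT and −3.51 in OPN-null. Pdgfrb had −1.07 ± 0.83 (adjusted p = 0.392) and the dermal transcription factor Twist2 −1.31 ± 1.21 (adjusted p = 0.482), at 0 to 9.97 and 0 to 3.64 CPM. Without unirradiated WT 11 these were 1.59 and 0.36. Of the Twist2 exon bases, 46.53% are shared with an antisense gene.

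**Figure D3:**
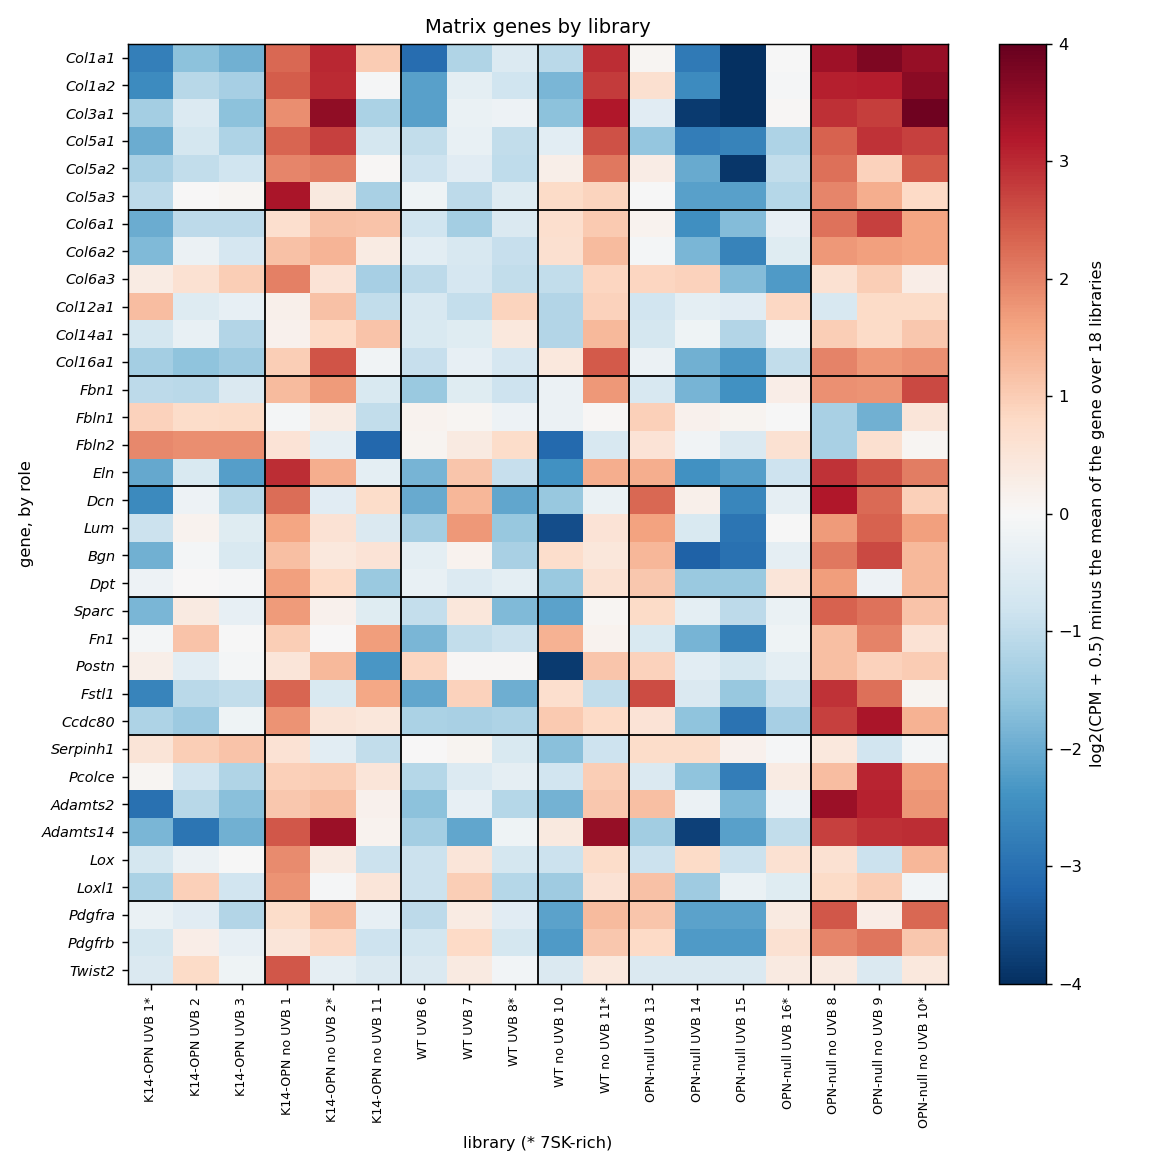
Level of each of the 34 tested genes in each library, as log2(CPM + 0.5) minus the gene's mean over the 18 libraries, with genes by role and libraries by genotype and UVB; a star marks 7SK-rich libraries. In the fibrillar collagen rows most irradiated libraries are blue and most unirradiated ones red, with the hair-rich WT 10 and K14-OPN 11 paler or blue, while Col6a3 and Col12a1 overlap between irradiated and unirradiated libraries in every genotype.

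Per 1 kb of annotated exon, unirradiated libraries had median levels of 209.8 CPM for Col1a1, 66.8 for Col3a1, 50.1 for Col1a2, 34.0 for Sparc, 13.0 for Col16a1 and 10.1 for Dcn (n = 8). With UVB the order was Sparc at 16.1, Serpinh1 at 11.6, Col1a1 at 7.70, Col3a1 at 5.03 and Dcn at 3.44 CPM per kb (n = 10). Col1a1 thus stood above Sparc without UVB and below it with UVB. Each of these genes overlapped its neighbours in the order in its range over libraries.

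Within single genotypes fewer genes passed. In OPN-null, 9 of the 34 fell and none rose, against 1.55% and 1.85% of all genes tested. They were Col5a1 (−4.92 ± 0.83, SE, adjusted p = 0.00672), Col6a1 (−3.07 ± 0.57, 0.00933), Col16a1 (−3.03 ± 0.62, 0.0153), Adamts14 (−5.00 ± 1.03, 0.0158), Col6a2 (−2.70 ± 0.60, 0.0219), Ccdc80 (−3.71 ± 0.88, 0.0294), Col1a1 (−4.39 ± 1.07, 0.0335), Fbn1 (−3.23 ± 0.83, 0.0418) and Fn1 (−2.44 ± 0.64, 0.0449). In K14-OPN, Col16a1 (−3.04 ± 0.69, 0.0411) and Adamts14 (−5.23 ± 1.17, 0.0396) fell and none rose, against 0.550% and 0.508% of all genes. In WT none of the 34 passed, with a smallest adjusted p of 0.137 for Col16a1. There were 12 at an unadjusted p below 0.05, and DESeq2 called 2 (Adamts14 and Col16a1). In WT 0.0317% of all genes fell and 0.0635% rose, 0.0952% together. The 34 genes had median log2 fold changes of −2.03 in K14-OPN, −1.14 in WT and −2.40 in OPN-null, against −0.18, −0.15 and 0.02 over all genes.

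Col5a1 and Col6a1 kept their call in OPN-null without any of its 7 libraries in turn. Adamts14 lost it without irradiated library 15, Col16a1 without irradiated 14 or 15, and Col6a2 without irradiated 14 or 15 or unirradiated 8 or 9. Col1a1 kept it only without irradiated 16 and Fbn1 only without irradiated 16, where its value was −4.13. Ccdc80 kept it without irradiated 13 (−5.08) or unirradiated 10, and Fn1 without irradiated 16 or unirradiated 10. Largest adjusted p values in these fits were 0.0572 for Adamts14, 0.0541 for Col16a1, 0.0785 for Col6a2, 0.103 for Col1a1, 0.126 for Fbn1, 0.101 for Ccdc80 and 0.161 for Fn1. The K14-OPN calls of Col16a1 and Adamts14 were lost without any 1 irradiated library or without unirradiated library 2, when the values were −2.04 and −4.41 and the adjusted p 0.103 and 0.0638.

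Between 7SK-rich libraries the comparison was 1 irradiated against 1 unirradiated library in each genotype, without replicates and without a test. Of the 34 genes, 21 were lower by more than 2-fold in all 3 pairs and none higher, against 10.6% and 7.67% of all genes tested. Differences in log2 CPM for Col1a1 were −5.75 in K14-OPN, −3.51 in WT and −3.48 in OPN-null. For Dcn, which was not called over all libraries, they were −2.17 in K14-OPN, −1.86 in WT and −1.31 in OPN-null, and for Sparc −1.99 in K14-OPN, −1.84 in WT and −1.39 in OPN-null. Fbln2 differed by 2.34 in K14-OPN, 1.45 in WT and 0.57 in OPN-null. None of the 6 libraries in these pairs is hair-rich. With library kind as a term in the model, 6 genes fell in K14-OPN, 1 in WT (Adamts14) and 15 in OPN-null, and none rose, against 4.43%, 1.73% and 6.50% of all genes lower and 3.28%, 1.99% and 7.22% higher.

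The proportion of Col1a1 to Dcn also differed within libraries, where depth and scaling cancel. This ratio was picked after the values were seen and is a description. Per length, Col1a1 over Dcn was 4.40 to 14.3 in the 3 irradiated 7SK-rich libraries, against 27.1 to 52.0 in the 3 unirradiated ones. In Lars2-rich libraries it was 0.563 to 2.80 in 7 irradiated, against 4.89 to 12.8 in 5 unirradiated ones. Irradiated and unirradiated libraries did not overlap within either kind, and the hair-rich libraries had 6.52 (WT 10) and 5.72 (K14-OPN 11), inside the unirradiated range. Of the other ratios computed, Col1a1 over Sparc was 0.686 to 3.02 against 6.54 to 9.60 in 7SK-rich and 0.0745 to 0.797 against 1.97 to 3.77 in Lars2-rich libraries, irradiated against unirradiated, without overlap. Col3a1 over Dcn was 2.21 to 6.48 in irradiated against 12.7 to 26.5 in unirradiated 7SK-rich libraries. In Lars2-rich libraries it overlapped, at 0.0941 to 1.53 in irradiated against 0.408 to 2.30 in unirradiated ones. A ratio shows unequal change of the 2 genes and not which of them changed.

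**Figure D4:**
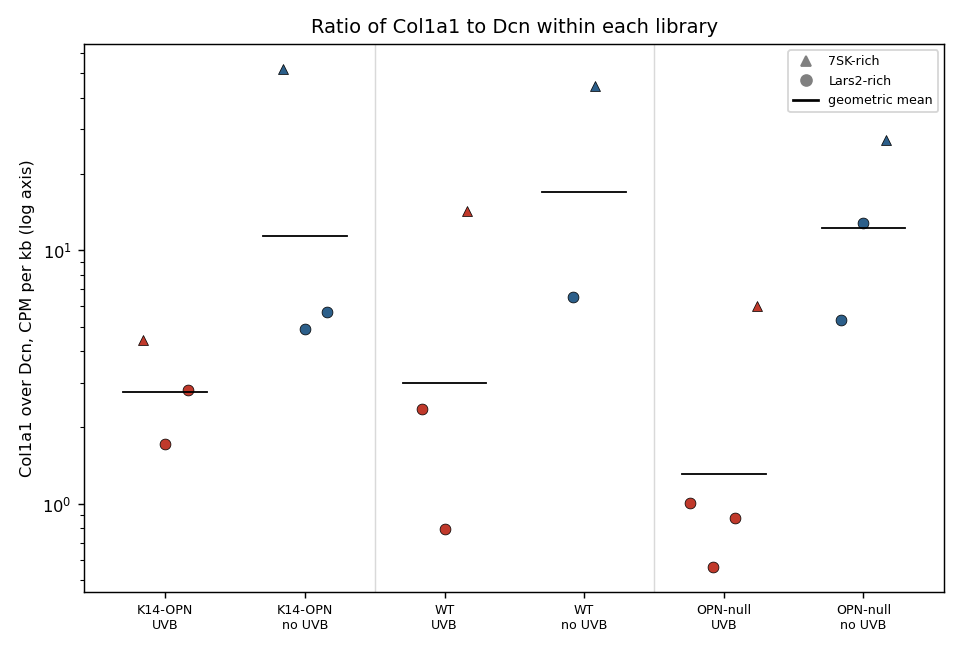
Ratio of Col1a1 to Dcn (CPM per kb of exon, log axis) in each library by genotype and UVB; triangles are 7SK-rich and circles Lars2-rich libraries, lines geometric means. Within each kind the irradiated libraries lie below the unirradiated ones, and 7SK-rich libraries lie higher than Lars2-rich ones of the same group.

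No difference between genotypes passed for any of the 34 genes. With UVB, K14-OPN against OPN-null, WT against OPN-null and K14-OPN against WT gave 0 calls by edgeR and by DESeq2, with 4, 0 and 2 genes at an unadjusted p below 0.05. Without UVB the same 3 comparisons gave 0 calls by either tool, with 1, 4 and 0 at an unadjusted p below 0.05. Among all genes tested, 0.00529% were called in WT against OPN-null with UVB and 0% in the other 5 comparisons. The UVB response was also compared between genotypes, and none of the 34 differed by either tool in K14-OPN minus OPN-null, WT minus OPN-null or K14-OPN minus WT (0 at an unadjusted p below 0.05 in each). For Col1a1 the response differed by 0.02 ± 1.45, 1.06 ± 1.55 and −1.03 ± 1.60 on the log2 scale (SE). Errors of this size do not show the responses to be alike. Unirradiated WT against OPN-null had a median of −1.12 over the 34 genes, with 1 of the 2 WT libraries hair-rich.

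Other genes of the collagen pathway were counted from lists of genes outside the set. In the same averaged comparison 11.4% of all genes tested fell and 10.0% rose. Of 23 tested enzymes and chaperones that modify collagen, 2 rose and 4 fell. Plod3, a lysyl hydroxylase and glycosyltransferase, rose by 1.05 ± 0.24 (adjusted p = 0.00601) and P4hb, protein disulfide isomerase and a subunit of prolyl hydroxylase, by 1.10 ± 0.26 (0.00727), beside the rise of Serpinh1. Creb3l1, a transcription factor known to drive collagen genes, fell by 2.01 ± 0.45 (0.00496). Of 15 basement membrane genes, 6 fell. Col4a1, a main chain of basement membrane collagen, fell by 2.88 ± 0.39 (0.000155) and Col7a1, the anchoring fibril collagen made by keratinocytes and fibroblasts, by 2.25 ± 0.36 (0.000559). Among 13 genes of collagen breakdown and its inhibitors, Timp1, a metalloproteinase inhibitor, rose by 2.85 ± 0.81 (0.0195) and Fap, a fibroblast surface protease, fell by 2.77 ± 0.86 (0.0297). Timp1 was 4.24 without unirradiated K14-OPN 1 and 4.72 without unirradiated WT 11, and lost its call without WT 10 (adjusted p = 0.0571). The Fap call was lost without any 1 of 7 libraries (K14-OPN 2, 3 and WT 6, 8 with UVB, and K14-OPN 11, WT 10 and OPN-null 10 without), and its value was −0.45 without unirradiated OPN-null 10. In the transforming growth factor beta pathway, a main inducer of collagen genes, 3 of 18 rose and 3 fell, with Tgfb2 falling by 3.41 ± 0.65 (0.00169) and its receptor Tgfbr2 rising by 1.35 ± 0.39 (0.0205). The Tgfbr2 call was lost without unirradiated WT 10 (adjusted p = 0.0596).

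Some markers of other cells were called with UVB too, in a comparison where 11.4% of all genes tested fell and 10.0% rose. Of 12 basal keratinocyte genes 7 rose and 1 fell, and their sum was 9066 to 28144 CPM with UVB, against 2298 to 10108 CPM without. None of 10 suprabasal genes passed by edgeR (3 at an unadjusted p below 0.05, and 4 called by DESeq2), with sums of 7929.8 to 28911 CPM with UVB and 4305 to 31362 CPM without. Of 8 tested endothelial genes 1 fell, of 9 pericyte and smooth muscle genes 1 and of 7 adipocyte genes 1. Of 7 Schwann cell genes 1 fell and of 10 sebocyte genes 1, and no gene of these lists rose. A count of 1 in such short lists is near the share over all genes. None of 3 tested skeletal muscle genes passed (0 at an unadjusted p below 0.05 and 0 by DESeq2). The adipocyte gene was Fabp4, at −5.75 ± 1.33, and it reversed to 0.18 without the 3 libraries that stood apart. Endothelial sums were 5.77 to 26.8 CPM with UVB and 4.07 to 24.9 CPM without. For pericytes and smooth muscle the sums were 64.5 to 329.9 and 82.5 to 394 CPM, and for Schwann cells 104 to 247 and 139.8 to 383 CPM. Dermal papilla genes summed to 14.4 to 147 CPM with UVB and 4.37 to 311 CPM without, with 1 of 6 higher and 1 lower. Of 11 hair shaft genes 10 fell, with both hair-rich libraries among the unirradiated ones, and of 8 melanocyte genes 4 fell. The melanocyte sum was also high in these libraries, at 314 CPM in WT 10 and 397 CPM in K14-OPN 11, against 1.32 to 80.5 CPM elsewhere. Without WT 10 the calls of Mitf (−1.75, adjusted p = 0.0652), Dct (−4.30, 0.052) and Pmel (−1.78, 0.136) were lost, and without K14-OPN 11 those of Dct (−3.70, 0.0912) and Pmel (−1.97, 0.0583). Of 10 neutrophil genes 2 rose, with sums of 247 to 11955 CPM with UVB and 33.7 to 14395 CPM without, the highest unirradiated value being K14-OPN 1. Of 10 macrophage and Langerhans cell genes 1 rose, and of 7 T cell genes none passed (1 at an unadjusted p below 0.05 and 0 by DESeq2). How far a changed mix of cells takes part in the lower matrix RNA was not tested.

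As a share of all gene counts, the 36 genes made up 0.0184 to 0.134% in irradiated libraries and 0.0181 to 0.701% in unirradiated ones, where the hair-rich WT 10 was lowest. Without the hair-rich libraries the unirradiated range was 0.159 to 0.701%, and the 2 ranges did not overlap. This share sums genes of unlike length and response and has no test.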

How the data were processed

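RNA of scraped epidermis was sequenced by the submitters in 18 libraries of 6 groups. The authors deposited raw gene counts, whole numbers that had not been scaled. Tools listed in the submitters' processing notes, with no role or order, are STAR 2.7.5a, HTSeq 0.11.3, Trim Galore 0.6.5 and bcl2fastq 2.18.0.12, with GRCm38 as the build. Whether strand was used in counting, in which mode and with which annotation is not given in the sources used here. Genes that share exon bases, on either strand, may lose or exchange reads. Of 56246 genes, 55230 were matched by unversioned identifier to GENCODE M21. The 5 summary lines of the counting program, 44.0 to 88.8% of all reads in the table, entered neither library sizes nor tests.

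Counts were tested in R 4.3.3 with edgeR 4.0.16 (filterByExpr with minimum count 10 and minimum total 15, TMM, glmQLFit and glmQLFTest) in 1 model of 6 group means, with p adjusted over the 18910 genes kept. All tests are two-sided. There were 13 contrasts, which were UVB in each genotype and averaged, genotype differences with and without UVB, and differences of the UVB response. Fold changes are log2, UVB over no UVB unless stated, with a prior count of 0.125. Values per library are counts over TMM-scaled size, and log2 CPM for single pairs uses a prior count of 2. Length is the merged exon length in GENCODE M21. The model was tested on simulated counts. PCR reads without molecular identifiers are not independent, so floors of 3 counts cover counting error only.

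The 36 genes and all lists were chosen with earlier results of these data known, and so were the alternatives based on library kind and on 3 libraries that stand apart. Genes given in full were listed by name (Col1a1, Col1a2, Col3a1, Col5a1, Col6a1, Fbn1, Dcn, Lum, Sparc, Fn1, Postn, Adamts14, Serpinh1, Pdgfra) or were called in a single genotype, with up to 3 genes of each other list by smallest p. Fbln2 and the ratios of Col1a1 or Col3a1 to Dcn or Sparc were chosen after their values were seen. Alternatives were RLE scaling, DESeq2 1.42.0, no filter, library kind as a term, Lars2-rich libraries only, leaving out 3 libraries, a fit of 2 groups only, a replicate block, and each library left out in turn. Removal of the 3 libraries together with library kind as a term was added after seeing the data.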

Additional observations from a re-analysis of the deposited data

Results flagged for a closer look

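Among the irradiated OPN-null libraries, the only group of 4, Twist2 stood apart in library 16, at 0.441 CPM against 0 CPM in the other 3. Its distance to the nearest other library equalled the whole range of the group, as it must when all the others are at 0. The value came from 9 counts, and 3 counts correspond to 0.264 to 0.307 CPM in libraries 13, 14 and 15. The lowest and highest library of each of 34 genes were examined in this way. How often chance alone gives such a mark was not tested, and a single mark among 34 genes is not read as a result. OPN-null 16 is the 7SK-rich library of its group.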

How the results depend on the processing

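Of the 17 genes called over the averaged genotypes, 12 were called also without each library in turn, and 8 (Col1a1, Col5a1, Col6a1, Col6a2, Col16a1, Fbn1, Ccdc80 and Adamts14) in every alternative run. The number of the 34 genes called was 17 over the averaged genotypes, 21 with library kind as a term, 21 by DESeq2, 19 with RLE scaling, 19 with no filter, 16 without 3 libraries, 23 without 3 libraries and with library kind, and 11 with Lars2-rich libraries only (9 lower, 2 higher). In OPN-null, 9 became 15 with library kind as a term, 16 with no filter, 16 by DESeq2, 14 with Lars2-rich libraries only (13 lower, 1 higher) and 15 without 3 libraries and with library kind. In K14-OPN, 2 became 6 with library kind, 12 with no filter, 10 by DESeq2, 15 (14 lower, 1 higher) without 3 libraries and with library kind, and 0 with Lars2-rich libraries only, with the 2 compared groups only, and with the replicate block. In WT, 0 became 1, 6, 2 and 3 with library kind, no filter, DESeq2, and 3 libraries left out with library kind. Leaving out 1 library gave 2 to 9 calls in OPN-null, 0 to 3 in K14-OPN and 13 to 18 over the average. The cause of these changes was not tested. Comparisons between genotypes and of UVB responses had 0 calls in all alternatives run. The K14-OPN libraries share the numbers 1 and 2. Deviations of same-numbered libraries had correlations of −0.451 and −0.578, but in each such pair only 1 library is Lars2-rich. The pairs of unlike number, which match in library kind, had correlations of 0.636 and 0.340. Number and library kind cannot be told apart here, so these correlations cannot show whether same-numbered libraries belong together. The main model did not pair them, and the 0 calls with the block are not read as a weaker effect.

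With Lars2-rich libraries only, values not called reversed sign for Eln (0.33), Lum (2.32), Dpt (0.99), Postn (1.41), Lox (0.84), Loxl1 (1.52), Pdgfra (1.06) and Pdgfrb (1.60). Without unirradiated WT 11 they reversed for 11 genes, and the values over all fits without 1 library were −0.52 to 0.25 for Col12a1, −2.46 to 0.22 for Col14a1, −3.40 to 0.21 for Eln, −1.44 to 2.21 for Lum, −1.41 to 1.10 for Dpt, −0.70 to 1.10 for Postn, −2.40 to 0.51 for Lox, −1.46 to 1.43 for Loxl1, −1.99 to 1.03 for Pdgfra, −1.37 to 1.59 for Pdgfrb and −1.63 to 0.36 for Twist2. Fabp4 reversed to 0.18 without the 3 libraries that stood apart. Fits without WT 10 or WT 11, or with Lars2-rich libraries only, leave 1 unirradiated WT library, whose spread is taken from the other groups. Without WT 11 or with Lars2-rich libraries only, that library is the hair-rich WT 10. It had 0 counts of Col14a1, Eln, Lum, Dpt, Lox, Loxl1, Pdgfra, Pdgfrb and Twist2, 2 of Postn and 28 of Col12a1. The WT part of these reversed values is thus a change from a count at or near 0 for all but Col12a1. Tested genes with the fewest counts over all libraries were Twist2 (72), Lox (132), Col14a1 (189), Loxl1 (203) and Dpt (285). The share of counts in the 36 genes moved beyond 1 SD without the 10 most abundant genes, to 0.0700, 0.0877 and 0.748% in K14-OPN 1 and 2 with UVB and 2 without, 0.0968 and 0.0920% in WT 7 and 8 with UVB, and 0.858 and 1.01% in OPN-null 8 and 9 without. Relative to TMM-scaled size it moved to 0.0370, 0.0568 and 0.0472% in K14-OPN 1, 2 and 3 and 0.0468% in WT 8 with UVB, and to 0.505% in OPN-null 9 without.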
